A study of Mus musculus with 2031 samples.

Results

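The genes described here are 10 members of the Notch pathway: the receptors *Notch1*, *Notch2* and *Notch3*, the ligands *Dll1*, *Jag1* and *Dner*, the DNA-binding partner *Rbpj*, and the target genes *Hes1*, *Hes5* and *Hey2*. They were listed by name, and each of the 10 symbols was found once among the 49671 genes of the counts. Cells came from untreated C57/Bl6 mice at postnatal day 56. Cortex and hippocampus were dissociated with papain, and cells carrying the astrocyte surface protein ATP1B2 were sorted singly into wells with the ACSA-2 antibody, leaving out cells stained for the oligodendrocyte antigen O1, and sequenced by Smart-seq2. The 4 cell suspensions were 2 cortical ones, each from 1 animal, and 2 hippocampal ones, each pooled from 4 littermates, so that brain area cannot be told apart from litter and pooling. Cell types and the astrocyte subtypes AST1 to AST5 are the authors' own, found by clustering the same counts, so that differences between types describe those clusters and are no independent evidence that the types are distinct.

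Notch receptors are transmembrane proteins that are cut when a ligand on a neighbouring cell binds them. The freed intracellular domain joins RBPJ on DNA and switches on target genes, among which the Hes and Hey families encode repressors of transcription. In the brain the pathway is known for keeping neural stem cells and glial progenitors undifferentiated, and in blood vessels NOTCH3 is known as the receptor of mural cells, the pericytes and smooth muscle cells that wrap capillaries and arteries. DNER is a transmembrane protein of neurons with repeats like those of Notch ligands, and it lacks the domain by which classical ligands bind the receptors.

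RBPJ recognises the core GTGGGAA. Of the 10 genes, 9 had entries in the RefSeq promoter table of GRCm38.p6, with 11 start sites, and *Hes1* had none. The core, searched on both strands (GTGGGAA or TTCCCAC) in the 250 bases before each start, was present at 2 of those 11 starts, those of *Hes5* and *Hey2*, whereas 5.42% of all 32851 promoter windows of that length held it. The windows of these target genes are shown because they hold the core and because *Hes5* was found in more astrocytes and *Hey2* in more mural cells, and that of *Notch3* because this receptor had its highest level in mural cells. Each line reads 5′ to 3′ on the strand of the gene and ends at the base before the start, and capitals mark the core. The *Hes5* window lies on chromosome 4, 154960673 to 154960922, plus strand, with 2 cores, the nearer of which begins 83 bases before the start. The *Hey2* window lies on chromosome 10, 30842784 to 30843033, minus strand, with 1 core. The *Notch3* window lies on chromosome 17, 32166891 to 32167140, minus strand, and does not hold these letters.
Hes5: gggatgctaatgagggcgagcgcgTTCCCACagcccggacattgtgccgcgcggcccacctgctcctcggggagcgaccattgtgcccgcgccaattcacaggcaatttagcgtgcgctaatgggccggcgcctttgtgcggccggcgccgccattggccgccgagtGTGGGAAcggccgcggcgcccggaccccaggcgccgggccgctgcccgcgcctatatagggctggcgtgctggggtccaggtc
Hey2: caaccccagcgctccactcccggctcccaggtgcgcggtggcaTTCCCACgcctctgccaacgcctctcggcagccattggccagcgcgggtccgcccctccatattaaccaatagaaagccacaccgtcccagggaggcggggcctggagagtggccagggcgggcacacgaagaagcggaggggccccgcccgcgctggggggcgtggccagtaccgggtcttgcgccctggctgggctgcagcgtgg
Notch3: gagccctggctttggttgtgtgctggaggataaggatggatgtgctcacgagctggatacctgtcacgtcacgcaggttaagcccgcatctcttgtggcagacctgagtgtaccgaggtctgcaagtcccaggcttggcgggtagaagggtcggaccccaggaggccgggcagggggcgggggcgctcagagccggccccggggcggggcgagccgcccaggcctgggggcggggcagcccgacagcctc

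The values are counts of reads summed over the cells of a type in a suspension and given as CPM, that is relative to the total of gene counts in the sum. A sum was used if it held at least 5 cells. There were 657 AST1, 555 AST2, 452 AST3, 91 AST4 and 26 AST5 cells, 30 endothelial, 17 neuronal, 11 microglial and 9 oligodendrocytic cells with a type and a file, and 27, 12, 48 and 47 mural cells in cortical suspensions 1 and 2 and hippocampal suspensions 1 and 2. AST4 had sums only from hippocampus (41 and 48 cells), neuronal cells likewise (8 and 9), and the 3 AST5 sums held 6 to 10 cells. Depth per cell ran from 600758 to 3238215 counts, with medians per suspension between 1351590 and 1545143. The labels went with their markers: the 8 mural genes summed to between 48969 and 58906 CPM in mural cells and to between 104.5 and 146.4 CPM in astrocytes, the 7 endothelial genes to between 16109 and 22219 CPM in endothelial cells, and the 8 astrocyte genes to between 42972 and 44734 CPM in astrocytes. Neuronal cells had counts of 4 of the 6 neuron genes, with *Rbfox3* and *Gad1* at 0. Of 10 genes of neural stem cells or progenitors they held 51.6 to 132.8 CPM, from *Sox4*, *Sox11* and *Eomes*, with the others at 0. Whether these few cells stand for hippocampal neurons in general was not tested. Mural cells also held 3145 to 3485 CPM of the astrocyte genes, and endothelial cells held 10008 to 17266 CPM of the mural genes. Replicates here are suspensions, and there are 4 of them. The main fits took each sum of a type in a suspension as independent. Their p-values therefore measure the spread between sums of a type, pooled over the types of a fit and including small sums, and not that between 4 preparations alone.

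**Figure D1:**
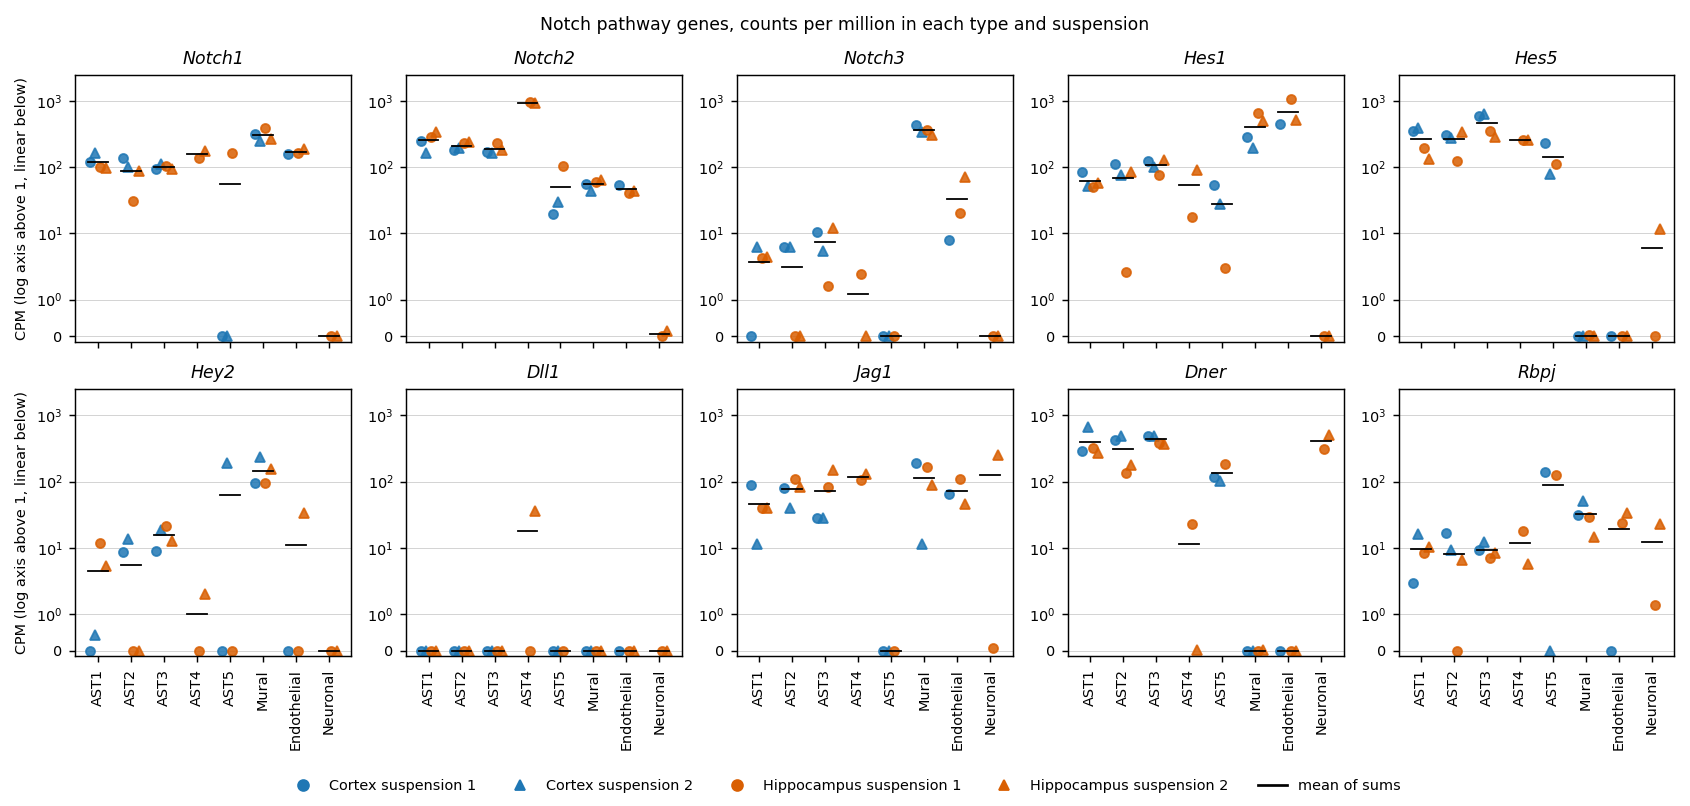
Each panel plots a gene's CPM (log axis above 1, linear below) in each type and suspension with at least 5 cells. Blue is cortex and orange hippocampus, circles are suspension 1 and triangles suspension 2, and bars are means of the sums. *Notch3* sits between 302.8 and 428 CPM in mural cells, *Hes5* is at or near 0 in mural and endothelial cells, and *Notch2* is highest in AST4, at 930 and 957 CPM.

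The receptors differed in level between astrocytes and mural cells in opposite ways. Per kilobase of exon, the scale on which genes can be compared, astrocytes held 24.8 ± 9.45 CPM per kb of *Notch2*, 7.62 ± 0.379 of *Notch1* and 0.663 ± 0.178 of *Notch3* (SD, n = 4 suspensions). Mural cells held 44.3 ± 6.46 CPM per kb of *Notch3*, 21.5 ± 4.38 of *Notch1* and 5.16 ± 0.848 of *Notch2* (SD, n = 4). The order *Notch2*, *Notch1*, *Notch3* was found in all 4 astrocyte sums, and the order *Notch3*, *Notch1*, *Notch2* in all 4 mural sums. A count of *Notch3* was found in 56.25% to 83.3% of the mural cells of a suspension, against 3.5% to 5.41% of the astrocytes.

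*Notch3*, the vascular receptor, measured 428 and 343.9 CPM in the cortical mural sums and 358.7 and 302.8 CPM in the hippocampal ones. In astrocytes it measured 6.87 and 5.91 CPM in cortex and 3.46 and 5.22 CPM in hippocampus. The groups did not overlap, and the fitted log2 difference was 5.44 ± 0.83 (SE; edgeR quasi-likelihood test, Benjamini-Hochberg adjusted p = 0.00587). Leaving out cortical suspension 1, cortical suspension 2 or hippocampal suspension 1 gave adjusted p = 0.0567, 0.0641 and 0.0685 at an unchanged direction. The counts in astrocytes came from 79 of 1781 cells, and the 10 highest of these cells carried 40.2% of them. Among endothelial cells, whose sums also held mural genes, *Notch3* measured 7.9, 20.4 and 71.7 CPM, below every mural sum, and the part of mural RNA in those values was not tested (endothelial against mural log2 difference -3.67 ± 0.89, adjusted p = 0.146).

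*Notch2* measured 182.4 and 176.6 CPM in cortical and 339.2 and 369.96 CPM in hippocampal astrocytes, and 55.7, 43.1, 59.2 and 64.6 CPM in the mural sums in the order cortical 1 and 2, hippocampal 1 and 2. No mural sum reached an astrocyte sum, and the fitted log2 difference was -2.81 ± 0.66 (adjusted p = 0.0301). In endothelial cells it measured 54.4, 41.1 and 44.1 CPM, with a log2 difference from astrocytes of -3.27 ± 0.76 (adjusted p = 0.0365). Neither call was firm: with the suspension as a replicate block the adjusted p was 0.113 for mural and 0.111 for endothelial cells. Leaving out each suspension in turn gave 0.0661 to 0.111 for mural and 0.0746 to 0.169 for endothelial cells, with the direction kept. In the 17 neuronal cells 2 counts of *Notch2* were found, and the level in hippocampal astrocytes was 5268 times theirs, with a counting interval of 1458 to 43501 (adjusted p = 0.000589). *Notch3* had 0 counts there (edgeR adjusted p = 0.00539), and the call was lost without hippocampal suspension 1 or 2 and with thinned cells. Over reads alone its level was at least 43.01-fold below those astrocytes. Over cells no such bound holds, since 0 of 17 allows a share with a count of up to 17.6%, above the 4.44% of all astrocytes.

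*Notch1* was found in every astrocyte subtype and vascular type, with 115.7, 109.4, 103.9 and 104.9 CPM in the astrocyte sums and 319.6, 246.98, 388 and 270.1 CPM in the mural sums. The mural sums lay above all astrocyte sums, but the fitted log2 difference of 0.90 ± 0.36 did not pass edgeR's test (adjusted p = 0.133, unadjusted 0.0326), and DESeq2 called it (adjusted p = 0.00935). Endothelial sums measured 155.97, 162.9 and 188.7 CPM, above astrocytes in plain CPM, while the composition-corrected fit gave a log2 difference of -0.16 ± 0.39 (adjusted p = 0.834), so that its direction depended on the scaling. Neuronal, microglial and oligodendrocytic cells held 0 counts of *Notch1*. Against hippocampal astrocytes the neuronal level was at least 1034-fold lower over reads, taking 3 counts over the 17 cells as the floor (adjusted p = 2.58e-05). Over cells, 0 of 17 allows a share with a count of up to 17.6%, against 47.2% of all astrocytes.

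Across the 9 members that passed the low-count filter, 4 were called in mural against astrocyte (percent of all 17404 genes called: 15.1%), 3 in endothelial against astrocyte (5.61%), 4 in neuronal against astrocyte (2.86%) and 0 in endothelial against mural (1%). In the last comparison the unadjusted p was under 0.05 for 2 members (13.8% of all genes) and DESeq2 made 2 calls (21.3% of all genes). Counted by sums that did not overlap in plain CPM, 8 of 9 members stood apart in mural against astrocyte (36.9% of all genes), 6 of 9 in endothelial against astrocyte (48.4%), 6 of 9 in neuronal against astrocyte (58%) and 3 of 9 in endothelial against mural (10.3%). *Dll1* passed the filter in no fit. The median log2 difference of all genes in mural against astrocyte was -1.36 with composition-corrected (TMM) library sizes, -1.13 with RLE size factors and -0.79 with plain library sizes, and the members' median was 0.89 with TMM.

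The order of the targets also differed between the cell types. In astrocytes *Hes5*, the Hes gene best known from neural progenitors, measured 226.5 ± 87.4 CPM per kb, *Hes1* 39.1 ± 12.3 and *Hey2* 2.29 ± 1.02 (SD, n = 4). In mural cells the same scale gave 200.5 ± 100.9 for *Hes1*, 31.5 ± 14.5 for *Hey2* and 0.00562 ± 0.0112 for *Hes5* (SD, n = 4). All 4 astrocyte sums had the order *Hes5*, *Hes1*, *Hey2*, and all 4 mural sums the order *Hes1*, *Hey2*, *Hes5*.

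*Hes5* measured 416 and 406 CPM in cortical and 223.8 and 188.8 CPM in hippocampal astrocytes. All mural cells together held 2 counts and the 30 endothelial cells 0. Over reads the astrocyte level was 27279 times the mural level, with a counting interval of 7552 to 225250 (exact, 95%). The endothelial level was at least 4546-fold lower than that of astrocytes at a floor of 3 counts over the group. Over cells, 0 of 30 endothelial cells allows a share with a count of up to 10%, against 64.6% of astrocytes. The mural and endothelial differences from astrocytes both passed the test (adjusted p = 0.0134 for mural and 0.026 for endothelial cells). With the suspension as a replicate block the adjusted p rose to 0.0515 and 0.0873. Without cortical suspension 1 or 2 it was 0.111 and 0.108 for mural cells, and without each suspension in turn it was 0.0501 to 0.169 for endothelial cells. The astrocyte genes were at 3145 to 3485 CPM in the same mural sums in which *Hes5* was at or near 0.

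*Hes1*, the more widely used Hes gene, measured 288.7 and 195.95 CPM in cortical and 652 and 497 CPM in hippocampal mural cells, and 448, 1066 and 507 CPM in endothelial cells. Astrocyte sums measured 110.9, 80.8, 49.6 and 77.2 CPM, all below. The log2 differences from astrocytes, 1.64 ± 0.50 for mural and 2.08 ± 0.53 for endothelial cells, did not pass edgeR's test (adjusted p = 0.0582 and 0.0549), and DESeq2 called both (adjusted p = 0.0137 and 0.00162). Of the cells, 71.6% of mural, 83.3% of endothelial and 42.3% of astrocytic ones had a count. No neuronal or oligodendrocytic cell had one. Over reads, a floor of 3 counts put the neuronal level at least 628-fold below hippocampal astrocytes (edgeR adjusted p = 0.00018). Over cells, 0 of 17 neuronal cells allows a share with a count of up to 17.6%.

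*Hey2*, a target known from vessels, measured 93.6, 234.9, 95.7 and 153.8 CPM in mural sums against 6.15 to 16.6 CPM in astrocyte sums. The groups did not overlap, and the log2 difference was 3.14 ± 1.99 (adjusted p = 0.367). Its counts came from few cells: 26 mural cells (19.4%) and 66 of 1781 astrocytes (3.71%) had any. In endothelial cells it was found in 1 of 30 cells.

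**Figure D2:**
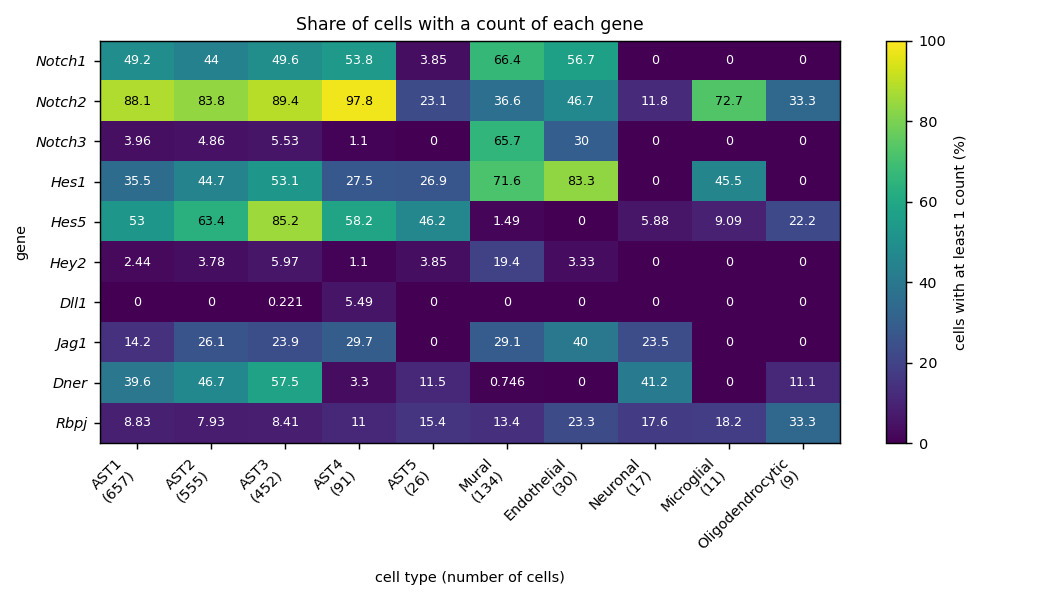
The heat map gives the share of cells with at least 1 count (colour scale 0 to 100%) for each gene and cell type, pooled over suspensions, with the number of cells under each type. *Notch2* was found in 83.8% to 97.8% of AST1 to AST4 cells, *Hes5* in 53% to 85.2%, against 23.1% and 46.2% of AST5 and 36.6% and 1.49% of mural cells.

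Within astrocytes, member calls were made in AST4 and AST5. None of the 9 members was called in AST1, AST2 or AST3 against the other astrocytes by edgeR (percent of all 18233 genes called: 0.0384%, 0.0548% and 0%). At an unadjusted p under 0.05 there were 0, 0 and 1 members (4.29%, 2.62% and 1.89% of all genes), and DESeq2 called 0 in each (5.2%, 4.83% and 3.99% of all genes). The 0% of AST3 stands for no gene called by edgeR, where DESeq2 called 727. In AST4, 1 member was called (0.636% of all genes) and in AST5, 3 (17%). By sums that did not overlap with those of any other subtype, AST4 and AST5 had 2 members each (7.49% and 9.16% of all genes).

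*Notch2* was high in AST4, at 957 and 930 CPM in the hippocampal suspensions, and the 12 sums of AST1 to AST3 ran from 161.1 to 340.3 CPM. It had a count in 100% and 97.9% of the AST4 cells of these suspensions. The log2 difference was 1.50 ± 0.31 (adjusted p = 0.0449). The call was lost in several settings: the adjusted p was 0.116 with the replicate block, 0.0942 without the low-count filter, 0.167 without cortical suspension 2, 0.0765 without hippocampal suspension 1 and 1 without hippocampal suspension 2. Without the AST5 sums it was 6.91e-05 (a fit added after the values were seen). In AST4 the 10 genes of neural stem cells or progenitors summed to 1107 and 1277 CPM, with 9 of 10 above 0 and *Eomes* at 0, against 51.3 to 174.1 CPM in the sums of the other subtypes, and their part in the *Notch2* level was not tested.

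*Dner*, in contrast, was nearly missing from AST4. It measured 22.7 and 0.0144 CPM there, 136.8 to 676 CPM in the sums of AST1 to AST3 and 100.4 to 184.2 CPM in AST5. Counts were found in 2.44% and 2.08% of AST4 cells of the hippocampal suspensions, against 27.3% to 64.2% in those 12 sums. The log2 difference of -4.95 ± 1.57 was not called (adjusted p = 0.306), and DESeq2 called it, as did the fit of thinned cells (0.0355) and the fit without hippocampal suspension 1 (0.000875).

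*Hes5* had its highest subtype mean in AST3, with 593 and 624 CPM in cortex and 345.7 and 281.4 CPM in hippocampus. The subtypes differed in their mix of areas, so its values are given within each area. In cortex AST1 measured 353.5 and 389.1 CPM and AST2 307.1 and 278.01 CPM, so that the AST3 sums lay above those of AST1 and these above those of AST2. In hippocampus AST1 measured 193.5 and 133.5 CPM and AST2, with 10 and 22 cells, 125.5 and 341.99 CPM, which overlapped with both. In cortex *Hes5* was found in 90.3% and 96.7% of AST3, 70.2% and 72.7% of AST1 and 66.7% and 59.7% of AST2 cells. In hippocampus it was found in 66.2% and 69.5% of AST3, 53.1% and 45.3% of AST1 and 50% and 81.8% of AST2 cells. The log2 difference of AST3 from the other astrocytes was 0.82 ± 0.29, with an unadjusted p under 0.05 and an adjusted p of 1. AST3 cells of both areas together also had more genes detected at equal depth, a median of 1908.5 at 50000 counts per cell against 1553 in AST1 and 1639 in AST2. After thinning to that depth the cortical shares with *Hes5* were 90.3% and 96.03% in AST3, 70.2% and 72.7% in AST1, and 64.2% and 59.01% in AST2.

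*Notch2*, *Hes5* and *Jag1* were lower in AST5. *Notch2* measured 19.8, 29.3 and 103.5 CPM (log2 difference -3.01 ± 0.33, adjusted p = 2.31e-05) and *Hes5* 229.8, 79.9 and 110.4 CPM (-1.91 ± 0.37, adjusted p = 0.00341, or 0.051 without cortical suspension 2). *Jag1* had 0 counts in all 26 cells, against counts in 14.2% to 29.7% of the cells of the other subtypes. The difference from the other astrocytes passed edgeR's test (adjusted p = 5.4e-05). Over reads alone, 3 counts over the group as the floor put the *Jag1* level at least 615-fold below that of all astrocytes. Over cells no such bound holds. By counting error alone, 0 of 26 allows a share of cells with a count of up to 11.5%, against 20.9% of all astrocytes. *Notch1* was found in 1 of 26 cells and *Hey2* in 1, while *Rbpj* measured 140.3, 0 and 124.9 CPM from 4 cells. AST5 cells had fewer genes detected than the other subtypes (median 1282.5 at equal depth) and the median log2 difference of all genes was -4.55, below the members' median of -2.11. The AST5 sums also held 0.345 to 949 CPM of 6 oligodendrocyte genes (3 above 0, with *Mog*, *Mag* and *Ermn* at 0), where the sums of the other subtypes held at most 140.3 CPM. Of 6 neuron genes they held 0 to 211.2 CPM (3 above 0, with *Syt1*, *Stmn2* and *Rbfox3* at 0), where the other subtypes held at most 70.5 CPM. Of 6 microglia genes they held 0.0932 to 100 CPM (3 above 0, with *Tmem119*, *C1qa* and *C1qb* at 0), where the other subtypes held at most 64 CPM. Of the mural and endothelial genes they held at most 2.98 and 0 CPM. The sort left out cells stained for O1, and the part of oligodendrocytes, neurons and microglia in the AST5 values was not tested.

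The ligands were unevenly spread. *Jag1*, a classical ligand, measured 60.5 and 32.3 CPM in cortical and 55.1 and 73.7 CPM in hippocampal astrocytes and was found in 20.9% of these cells. Mural sums measured 192.6, 11.3, 164.8 and 90.1 CPM and endothelial sums 64.3, 108.9 and 45.98 CPM, and the groups overlapped. The log2 difference of mural cells from astrocytes was 0.49 ± 1.41 (adjusted p = 0.914, 95% interval -2.77 to 3.76), which leaves a rise or a fall of several-fold undetected at this precision.

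*Dner* was carried by astrocytes and neuronal cells. Astrocyte sums measured 423 and 498 CPM in cortex and 298.7 and 252.1 CPM in hippocampus, and neuronal sums 310.1 and 505 CPM (log2 difference -0.75 ± 0.93, adjusted p = 0.709, and positive with plain library sizes). Mural cells held 1 count in all, for a ratio of 64686 with a counting interval of 11610 to 2554950, and endothelial cells 0 in 30. Over reads the endothelial level was at least 5389-fold below that of astrocytes. Over cells, 0 of 30 allows a share with a count of up to 10%, against 44.1% of astrocytes. The mural and endothelial differences from astrocytes both passed the test (adjusted p = 0.000306 for mural and 0.000743 for endothelial cells, the latter 0.0525 without hippocampal suspension 2).

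*Dll1*, a classical ligand of progenitors, was found in 6 of 1781 astrocytes. Of these, 5 were AST4 cells of hippocampal suspension 2 (10.4% of its 48 AST4 cells), which carried 2466 counts, and 1138 of those lay in 1 cell. The sixth, an AST3 cell, held 1 count. None of the 41 AST4 cells of hippocampal suspension 1 had a count, nor did any mural, endothelial, neuronal, microglial or oligodendrocytic cell, and no test was made.

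*Rbpj*, through which all receptors act, had few counts in astrocytes and mural cells: astrocyte sums measured 14.4, 10.8, 10.6 and 9.09 CPM and mural sums 31.5, 51.7, 29.6 and 14.8 CPM, with counts in 8.65% of astrocytes and 13.4% of mural cells. No contrast of types called it (mural against astrocyte log2 difference 0.89 ± 1.58, adjusted p = 0.833). The annotation also holds processed pseudogenes of *Rbpj*, between which and the gene reads could be split or dropped, so that its level is uncertain. Their part in the *Rbpj* counts was not tested.

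Microglial and oligodendrocytic cells were too few for sums. *Notch2* was found in 8 of 11 microglial and 3 of 9 oligodendrocytic cells, *Hes1* in 5 of 11 and none of 9, and neither type had a count of *Notch1*, *Notch3*, *Hey2* or *Jag1*.

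The list of other pathway genes gave 43 tested genes in the contrasts of cell types. In mural against astrocyte, 4 were called (9.3%, against 15.1% of all genes): *Heyl*, a further Hey-family target, and *Dtx3*, of the Deltex family of ubiquitin ligases, were higher, and *Dtx1* and *Lfng*, whose product is a sugar transferase acting on receptors, were lower, with 0 counts in mural cells. *Heyl* measured 1289 ± 328.8 CPM in mural cells (SD, n = 4, from 1004 to 1754) and 26.8 ± 9.33 CPM in astrocytes (15.8 to 38.3), a log2 difference of 5.06 ± 0.63 (adjusted p = 0.00209), with counts in 82.8% of the mural and 5.78% of the astrocytic cells. *Dtx3* measured 384.8 ± 20.4 CPM and 117.1 ± 9.01 CPM (log2 difference 1.12 ± 0.29, adjusted p = 0.0305). The list's median log2 difference was -0.39, and that of all genes -1.36. With the suspension as a replicate block, 1 of the 4 calls was made.

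In endothelial against astrocyte, 3 of 43 were called (6.98%, against 5.61% of all genes): *Heyl* (259.6 ± 163.3 CPM, n = 3, log2 difference 2.58 ± 0.58, adjusted p = 0.0388) and *Mfng*, a relative of *Lfng* (225.6 ± 146.9 CPM against 0.239 ± 0.475 CPM), were higher, and *Dtx1* was lower. The endothelial sums held 10008 to 17266 CPM of the 8 mural genes (6 above 0, with *Acta2* and *Tagln* at 0), and the part of mural RNA in their *Heyl* level was not tested. In endothelial against mural 2 were called (4.65%, against 1% of all genes): *Mfng* was higher (adjusted p = 0.0375) and *Dtx3* lower (log2 difference -1.80 ± 0.33, adjusted p = 0.034). In neuronal against astrocyte 3 were called (6.98%, against 2.86%), all lower: *Adam10*, the protease that makes the first activating cut, *Heyl*, and the feedback gene *Nrarp*, the last with 0 counts like *Heyl*. With the replicate block these 3 sets of calls became 0, 0 and 2. In AST5, 14 of 41 were called, all lower (34.1%, against 17% of all genes). Named here are 6 of these: *Ncstn*, *Psen2* and *Aph1b*, whose products belong to the gamma-secretase that makes the second cut, the protease gene *Adam17*, the coactivator gene *Ep300* and *Dtx4*. These 6 had 0 counts in the 3 AST5 sums, as had *Aph1c* and *Dtx2*, which were also called, and fitted differences against 0 give no order of size. With the replicate block 9 list genes were called. The list median was -2.13 and that of all genes -4.55. No list gene was called in AST1 to AST4 by edgeR. At an unadjusted p under 0.05 there were 0, 0, 0 and 2 (4.29%, 2.62%, 1.89% and 7.82% of all genes). DESeq2 called 2, 2, 1 and 2 (5.2%, 4.83%, 3.99% and 11.5% of all genes).

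**Figure D3:**
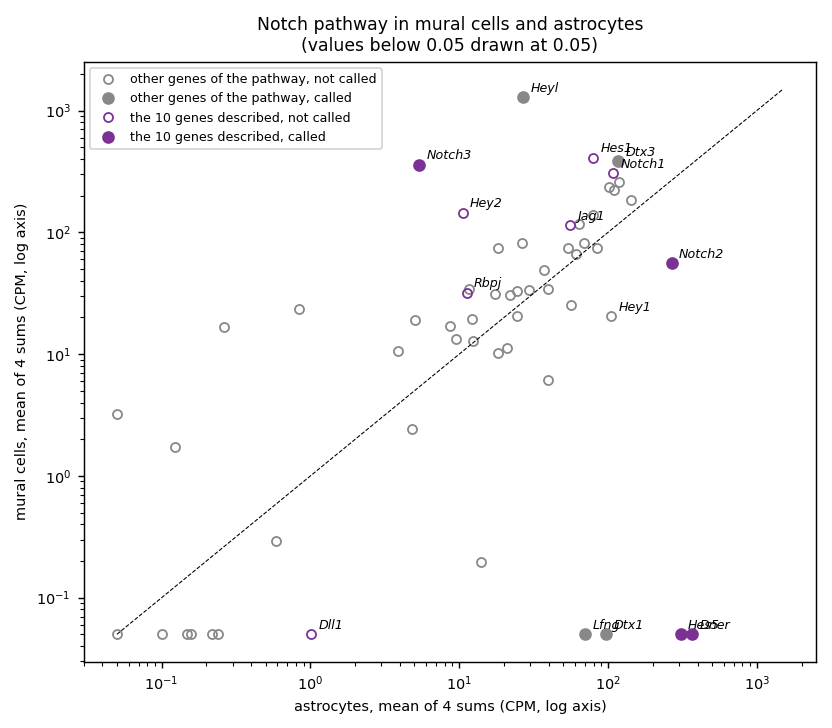
Each point is a gene, with its mean CPM over 4 sums in astrocytes (x, log axis) and in mural cells (y, log axis); values below 0.05 are drawn at 0.05, and the dashed line marks equality. Filled points were called; *Notch3* and *Heyl* lie far above the line, *Notch2* below it, and *Hes5* and *Dner* on the lower edge.

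Brain area was compared within AST1, AST2, AST3 and mural cells, the types with sums in all suspensions. By edgeR 0 of 45 tests of members were called, 6 were under 0.05 unadjusted, and DESeq2 made 4 calls (*Hey2* in AST1 and AST2, *Notch3* in AST2 and in the mean of the subtypes), all of them genes at 0 in some sums. Of all 18598 genes, 0% were called in AST1 (726 with an unadjusted p under 0.05, and 1298 by DESeq2), 1.05% in AST2, 0.00538% in AST3, 1.52% in mural cells and 0.29% in the mean of AST1 to AST3. In the same order, the unadjusted p was under 0.05 for 3.9%, 11.3%, 2.81%, 12% and 8.75% of all genes. DESeq2 called 6.98%, 18.2%, 5.29%, 16.1% and 13.7% of them. By sums that did not overlap between the areas, 4 of 9 members stood apart in AST1 (37.4% of all genes), 7 of 9 in AST2 (45.7%), 5 of 9 in AST3 (34.7%) and 3 of 9 in mural cells (23.5%). The hippocampal AST2 sums held 10 and 22 cells.

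*Hes5* measured 353.5 and 389 CPM in cortical and 193.5 and 133.5 CPM in hippocampal AST1, and 593 and 624 CPM in cortical and 345.7 and 281.4 CPM in hippocampal AST3. In both subtypes the cortical sums were the higher, while in AST2 (307.1 and 278.01 CPM against 125.5 and 341.99 CPM) they overlapped. The mean log2 difference of hippocampus from cortex over AST1 to AST3 was -0.81 ± 0.38 (adjusted p = 0.593, 95% interval -1.69 to 0.06). *Notch2* lay the other way, with hippocampal above cortical sums in each of the 4 types: 284.8 and 340.3 against 248.8 and 165.999 CPM in AST1, 227.4 and 239.8 against 182.04 and 192.4 CPM in AST2, 228.6 and 183.5 against 170.3 and 161.1 CPM in AST3, and 59.2 and 64.6 against 55.7 and 43.1 CPM in mural cells. The mean log2 difference in the astrocyte subtypes was 0.41 ± 0.19 (adjusted p = 0.576). With 2 suspensions an area, neither difference passed the test.

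*Dner* was lower in hippocampal AST2 (136.8 and 175.9 against 426 and 482 CPM) and AST3 (386.6 and 372.5 against 481 and 487 CPM). In AST1 the areas overlapped, at 484 ± 271.2 CPM in cortex and 295.3 ± 40.6 CPM in hippocampus (mean and SD over suspensions). Over AST1 to AST3 the mean log2 difference was -0.87 ± 0.32 (adjusted p = 0.459). *Jag1* in AST3 measured 27.8 and 28 CPM in cortex and 82.5 and 149.005 CPM in hippocampus (log2 difference 2.10 ± 1.20, adjusted p = 1), but in AST1 the areas overlapped. In mural cells *Hes1* measured 288.7 and 195.95 CPM in cortex and 652 and 497 CPM in hippocampus (log2 difference 1.48 ± 1.07, adjusted p = 0.772). *Notch1* had log2 differences of -0.48 in AST1, -1.08 in AST2, 0.02 in AST3 and 0.46 in mural cells, none called, and the sign in AST3 depended on the scaling.

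**Figure D4:**
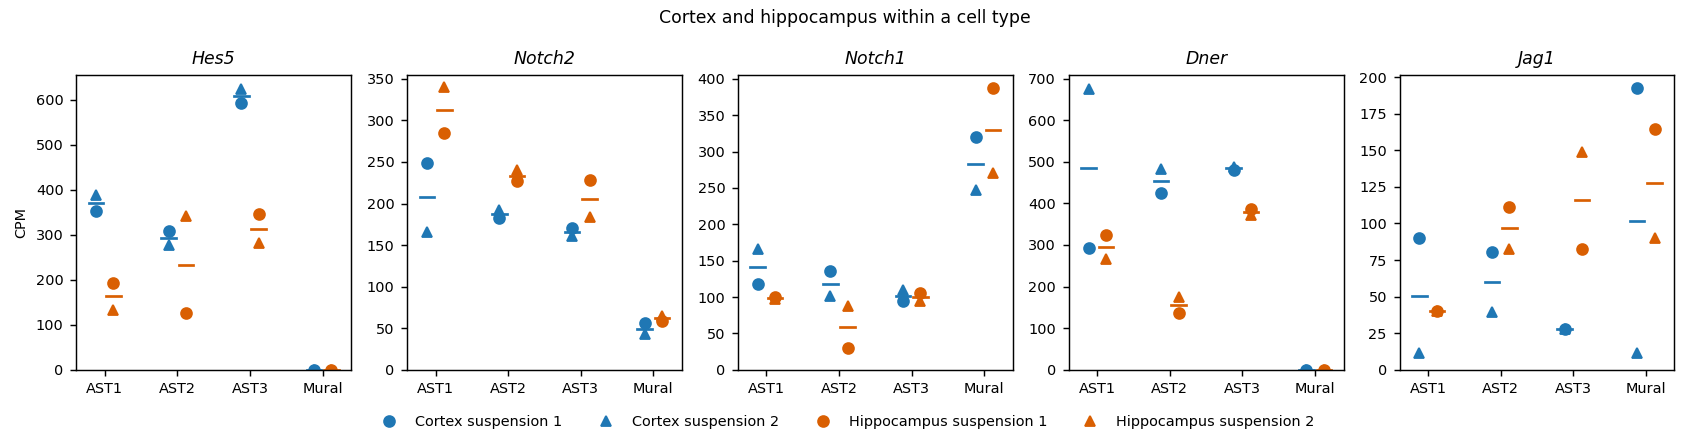
Each panel plots CPM (linear axis from 0) of a gene in cortical (blue) and hippocampal (orange) sums of AST1, AST2, AST3 and mural cells; circles are suspension 1, triangles suspension 2 and short bars the mean of 2. *Hes5* in AST3 lies at 593 and 624 CPM in cortex and at 345.7 and 281.4 CPM in hippocampus, and *Notch2* is higher in hippocampus in each type.

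Whether an area difference itself differed between types was tested by interaction contrasts. None of the members was called in mural cells minus the mean of AST1 to AST3 (1.62% of all genes), AST1 minus AST2 (0.651%), AST1 minus AST3 (0%, with 989 genes at an unadjusted p under 0.05 and 1218 by DESeq2) or AST2 minus AST3 (0.538%). Over these 36 tests the unadjusted p was under 0.05 in 4, and DESeq2 made 5 calls. In the order of these contrasts, the unadjusted p was under 0.05 for 12.4%, 13%, 5.32% and 8.25% of all genes. DESeq2 called 18.5%, 16.7%, 6.55% and 13.8% of them. Of the other pathway genes 2 of 42 were called higher in hippocampal than in cortical mural cells (4.76%, against 1.52% of all genes), *Hey1* and *Psen2*. *Hey1* counts came from 2 cells of hippocampal suspension 1 and 1 of suspension 2. Those of *Psen2* came from 1 cell of each but for 1 count, and 0 of 39 cortical mural cells had a count of either. With so few cells this does not show a lower share of cells with a count in cortex.

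The receptors were also read cell by cell, after thinning each cell to 50000 counts. Of the astrocytes 47.8% had counts of *Notch2* without *Notch1*, 34.5% of both, 6.4% of *Notch1* without *Notch2* and 11.3% of neither. Among AST4 cells no cell had *Notch1* without *Notch2*, and 50.5% had both. As 97.8% of AST4 cells had *Notch2*, few could have *Notch1* alone. At this depth 82.3% of all astrocytes had *Notch2* and 40.9% had *Notch1*. Whether the 2 receptors fell in the same cells more often than these shares give was not tested. Within AST1 to AST3, the mean share with *Hes5* was 63.6% among cells with *Notch2* and 58.6% among cells without. This was a difference of 5.04 ± 3.28 percentage points (SD over 4 suspensions), positive in 4 of 4 suspensions. Shares were taken per subtype, weighted by the subtype's cells within a suspension, and then averaged over suspensions. Subtypes with under 5 cells with or without the receptor in a suspension were left out there. The two-sided exact permutation p by sign flips was 0.125, the smallest that 4 suspensions can give, and 4 such pairs were computed. Cells with *Notch2* also had more genes detected, by 107.3 in the median, averaged over suspensions. For *Hes5* with and without *Notch1* the difference was 4.54 ± 5.33 points (positive in 3 of 4, exact p = 0.25). For *Hes1* it was -1.31 ± 2.41 points with *Notch1* and 1.19 ± 5.81 points with *Notch2* (exact p = 0.5 and 0.75). Adjusted over the 4 pairs, p was 0.5 for both *Hes5* pairs, 0.667 for *Hes1* with *Notch1* and 0.75 for *Hes1* with *Notch2*. Without thinning the differences were 4.52 and 4.32 points for *Hes5* and 3.74 and -2.93 points for *Hes1*, with *Notch2* and *Notch1* in that order. As a measure of background, *Hes5* was found in 1.49% of mural and 0% of endothelial cells before thinning, against 64.6% of astrocytes.

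Members were also compared by the Pearson r of their log2 CPM over the 26 sums of all types. *Notch1*, *Notch2* and *Hes1* had r of 0.69 to 0.75 with each other, *Notch1* had r = 0.64 with *Jag1* and 0.60 with *Notch3*, and *Notch3* had r = 0.67 with *Hey2*, 0.64 with *Hes1* and 0.23 with *Notch2*. *Hes5* had r = 0.81 with *Dner*, 0.53 with *Notch2* and -0.45 with *Notch3*. *Rbpj* had r of at most 0.35 with any other member. These are descriptions over sums that share suspensions and differ in depth. The sums include 2 neuronal ones, with 0 CPM of *Notch1* and *Hes1* and at most 0.141 CPM of *Notch2*. They also include the AST5 sums, with 19.8 to 103.5 CPM of *Notch2*. The part of these low sums in the r values was not tested. Mural sums lay above all astrocyte sums in *Notch1* and *Hes1* and below them in *Notch2*, so that the positive r does not hold between those types. The genes most like each member among 19167 were *Lims1* (r = 0.98) and *Frmd8* (0.97) for *Notch1*, *Prex2* and *Mfge8* (0.94 each) for *Notch2*, *Tbc1d1* (0.93) and *Art3* (0.89) for *Notch3*, *Ostf1* and *Adipor1* (0.93 each) for *Hes1*, and *Trim9* (0.99) and *Olig1* (0.98) for *Hes5*. For *Hey2* they were *Dnase1l1* (0.81) and *Zfp729a* (0.79), for *Jag1* *Ccdc107* (0.97) and *Slc25a51* (0.95), for *Dner* *Tuba4a* (0.95) and *Psd2* (0.94), and for *Rbpj* *Aldh3a2* and *Eprs* (0.92 each).

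In the annotation of GRCm38 the receptor genes span chromosome 2 from 26457903 to 26516663 on the minus strand (*Notch1*, ENSMUSG00000026923.15), chromosome 3 from 98013527 to 98150361 on the plus strand (*Notch2*, ENSMUSG00000027878.11) and chromosome 17 from 32120820 to 32166852 on the minus strand (*Notch3*, ENSMUSG00000038146.7). The targets span chromosome 16 from 30064384 to 30067796, plus (*Hes1*, ENSMUSG00000022528.7), chromosome 4 from 154960923 to 154962371, plus (*Hes5*, ENSMUSG00000048001.7) and chromosome 10 from 30832359 to 30842801, minus (*Hey2*, ENSMUSG00000019789.9). The ligands span chromosome 17 from 15367354 to 15376872, minus (*Dll1*, ENSMUSG00000014773.13), chromosome 2 from 137081456 to 137116644, minus (*Jag1*, ENSMUSG00000027276.7) and chromosome 1 from 84369839 to 84696221, minus (*Dner*, ENSMUSG00000036766.12). *Rbpj* (ENSMUSG00000039191.12) spans chromosome 5 from 53466152 to 53657362, plus. Smart-seq2 reads carry no strand, and 31.8% of the exon length of *Hes5* is shared with *Gm20421* on the other strand and 20.5% of that of *Dll1* with a long non-coding RNA, so that reads there cannot be told apart. The strand setting of the counting is not given in the sources used here, and reads on more than 1 gene were left out, so that counts and levels per kilobase of these genes may be too low. For *Notch1*, *Notch2*, *Notch3* and *Dner* the shared part was 9.76%, 5.02%, 6.03% and 1.61%, and *Hes1*, *Hey2*, *Jag1* and *Rbpj* shared none.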

How the data were processed

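Smart-seq2 libraries of single mouse cells were sequenced as paired reads. Reads were aligned by the authors to GRCm38.p5 plus ERCC spike-ins (STAR 2.5.2b, unique alignments) and HTSeq gave the deposited counts, whole numbers for each gene in each cell without normalization or pooling. The table of all cells was compared with the files for 31 columns, whose totals and member counts were equal, and 1999 columns of it were not used. Of all reads counted, 12.2% lay outside exons, 4.68% on more than 1 gene and 3.94% on ERCC, and these were left out. Counts of 2030 of 2031 cells were read; 33 cells absent from the copy of the authors' type list and 15 without a type entered no comparison.

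From the deposited counts, sums per type and suspension (at least 5 cells) were tested with edgeR 4.0.16 (R 4.3.3): TMM, filterByExpr, robust quasi-likelihood fits, and calls at a Benjamini-Hochberg adjusted p under 0.05 over all genes tested. Each subtype was set against the cell-weighted average of the remaining subtypes, with a term for area (17 sums, 11 residual degrees of freedom); types in 13 sums (8); areas in 16 sums (8) with a term for each type in each area. Fitted log2 differences are given ± a standard error (SE), taken as the difference divided by the square root of its F statistic. Against sums at 0 a fitted difference gives no size, so a bound at 3 counts over the group is given. Reads without molecular identifiers are not molecules, so intervals and bounds cover counting error of reads only. Reads of a gene came in blocks from single cells, so that a bound over reads is no limit over cells. Fits were tested on simulated sums, where few of the genes made to differ were called at the dispersion of these data, so that a difference not called is not shown to be absent. Types within a suspension share its animals, so that the suspension pairs them. Their deviations were compared for AST1 to AST3 only, over all genes tested, and had r from -0.029 to 0.011. Other types were not compared in this way, so that these values do not show that the pairing can be left out. For areas, library preparation dates in the labels were mostly shared by suspensions of the same number, whose deviations had r from -0.009 to 0.020, and the block changed no call of a member by area.

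The genes named are the 10 members in each comparison, called genes of the pathway list (at most the 6 of greatest change) and the 2 genes most like each member. The members and lists were chosen with earlier results of these data known. Exon lengths came from a Gencode annotation of GRCm38 that is not the release the authors counted with, and promoters from RefSeq. DESeq2 1.42.0, other normalizations, filters, thinning, weights, terms and each suspension left out were tried as alternatives. The rest was done in Python 3.11.15 (pandas 2.3.3, matplotlib 3.10.9, scipy 1.17.1, numpy 2.4.6).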

Additional observations from a re-analysis of the deposited data

Results flagged for a closer look

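*Dner* in AST1 stood apart in cortical suspension 2, at 676 CPM, where the other 3 sums measured 266.5 to 323.99 CPM. *Dll1* over all astrocytes stood apart in hippocampal suspension 2, at 4.03 CPM from 2466 counts, where the others held at most 0.00129 CPM. A further 3 sums stood apart only because a gene at 0 elsewhere had 1 or 2 counts: *Hes5* in mural cells of hippocampal suspension 1 (0.0307 CPM), *Dner* in mural cells of hippocampal suspension 2 (0.0181 CPM) and *Dll1* in AST3 of cortical suspension 2 (0.00373 CPM). In all, 47 groups of 4 sums were checked, and chance alone sets about 1 in 20 apart.

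The hippocampus-against-cortex difference of mural cells was called different from that of AST1 to AST3 for *Hey1* (log2 difference of differences 15.7, edgeR adjusted p = 0.00111) and *Psen2* (14.6, adjusted p = 0.00735). Both fitted values stand against cortical mural sums at 0 counts and give no size. Counts of *Hey1* came from 3 cells, and those of *Psen2* from 2 cells but for 1 count, among 95 hippocampal mural cells. With so few cells, 0 of 39 cortical mural cells does not show a lower share of cells with a count.

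The 48 cells without a type in the list used here entered no comparison. Of these, 33 were not in the list, all from cortical suspension 1, and 15 were in it without a type. Members were found in the 48 cells: *Notch2* in 68.8%, *Hes5* in 56.2%, *Dner* in 50%, *Notch1* in 41.7%, *Hes1* in 39.6%, *Jag1* in 29.2%, *Hey2* in 8.33% and *Notch3* in 2.08%.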

How the results depend on the processing

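By subtype 4 member calls were made: 7 with DESeq2, 7 with thinned cells, 9 with equal weights, 1 without the AST5 sums (a setting added after the values were seen), 3 with the suspension as a replicate block, and 2 to 7 with a suspension left out, the lowest without cortical suspension 2 and the highest without hippocampal suspension 1. Calls over all genes moved too: from 0%, 0.0384% and 0.0548% in AST3, AST1 and AST2 to between 3.99% and 5.2% with DESeq2 and between 4.95% and 5.52% with equal weights, and in AST5 from 17% to 43.7% with DESeq2. In AST4 the share of all genes called went from 0.636% to 11.5% with DESeq2, 1.47% with thinned cells and 2.82% with equal weights. It was 2.81% without the AST5 sums and 0.494% with the replicate block. In AST5 it was 23% with thinned cells, 16.7% with equal weights and 12.4% with the replicate block. By cell type 11 calls became 19 with DESeq2, 7 with the replicate block and 6 with any suspension left out, while in mural against astrocyte the share of all genes called went from 15.1% to 28.4%, 2.33% and between 1.21% and 1.92%, and in endothelial against astrocyte from 5.61% to 36.5%, 1.87% and between 1.23% and 2.81%. In neuronal against astrocyte that share went from 2.86% to 30.4% with DESeq2 and 1.74% with the replicate block. In endothelial against mural it went from 1% to 21.3% and 0.184%. By area 0 calls became 4 with DESeq2, where the share of all genes called went to 6.98% in AST1, 18.2% in AST2, 5.29% in AST3 and 16.1% in mural cells. In the mean of AST1 to AST3 it went to 13.7%. Leaving out a suspension left a lone sum of each type in an area, so that calls of those fits are not given. The replicate block gave 0 by area. In the fits by subtype and cell type a lone sum left in a group was assumed to vary like the other groups. The cause of these changes was not tested. The other settings, plain library sizes included (also added after the values were seen), kept the counts of members within 1.5 times, and the 28 calls of the pathway list ranged from 20 to 27. With the replicate block its 14 calls by subtype, 12 by cell type and 2 by area became 9, 3 and 2, and with DESeq2 24, 57 and 21. Of 290 repeats of the called genes, 56 lost the call and 0 reversed. Of 220 shares of cells at another threshold or depth, 188 moved by less than the spread between suspensions. With and without thinning, the co-detection differences moved by less than that spread. AST5, endothelial and neuronal sums held 6 to 12 cells each.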

Other observations

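Neuronal cells, of which there were 17, carried *Mfng*, a fringe gene, in 41.2% of cells, at 209.3 and 255.3 CPM in the hippocampal suspensions, against 0.225% of astrocytes. The difference was not called (edgeR adjusted p = 0.0715), whereas that of endothelial cells was. *Adam10* measured 531 ± 177.7 CPM in endothelial cells (SD, n = 3) and 100.9 ± 2.90 CPM in astrocytes (SD, n = 4), with a log2 difference of 1.66 ± 0.66 that did not pass the test (adjusted p = 0.107).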
